A study of Mus musculus with 4 samples.

Results

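Cd44, Aqp5, Wfdc2, Clu and Glipr1 were followed as markers of spasmolytic polypeptide-expressing metaplasia (SPEM) in pancreatic cells of acinar origin. The 5 genes were chosen by name, as surface and secreted markers, out of 32288 features in the count table, and all 5 were present in it. Each was measured as counts per 1000000 (CPM, the gene's molecules relative to all molecules counted in a group of cells) in every mouse, and as the share of cells in which at least 1 of its molecules was counted. Molecules were counted by their unique molecular identifiers (UMIs).

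The study followed what acinar cells of the mouse pancreas become during chronic injury. All 4 mice carried Ptf1aCre-ERTM;ROSAYFP/+, a tamoxifen-activated Cre recombinase under the acinar gene Ptf1a with a yellow fluorescent reporter, and were backcrossed into CD-1. They received tamoxifen by gavage, which labels cells in which Ptf1a drives the recombinase, and then caerulein, a peptide that overstimulates acinar cells and causes pancreatitis, injected from 10 weeks of age 2 times per day on 5 days of each week. Injury lasted 2 weeks in 2 mice and 4 weeks in 2 mice, and EYFP+ cells sorted from each pancreas were sequenced singly. No uninjured pancreas was among these samples, so the comparisons are between cell types within a mouse and between the 2 durations, and labelling marks descent from a Ptf1a-expressing cell rather than present acinar identity.

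SPEM was first described in the stomach, where enzyme-secreting chief cells lose their granules and take on features of mucous neck cells, with trefoil factor 2 and mucin 6 as leading products. Cd44 encodes the receptor for hyaluronan and is used as a surface marker of gastric metaplasia. Aqp5 encodes a water channel of secretory epithelia, Wfdc2 a secreted protein with whey acidic protein domains, Clu the secreted chaperone clusterin, and Glipr1 a member of the CAP superfamily of secreted proteins. Acinar cells of the injured pancreas can pass through duct-like and mucin-producing states, and those are the states in which these markers are usually sought.

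In the GENCODE vM21 annotation of GRCm38, Cd44 (ENSMUSG00000005087.17) spans chromosome 2 from 102811141 to 102901665 on the minus strand, and Wfdc2 (ENSMUSG00000017723.11) spans chromosome 2 from 164562413 to 164568510 on the plus strand. Aqp5 (ENSMUSG00000044217.17) spans chromosome 15 from 99590782 to 99594829 and Clu (ENSMUSG00000022037.15) chromosome 14 from 65968483 to 65981547, both on the plus strand. Glipr1 (ENSMUSG00000056888.11) spans chromosome 10 from 111985448 to 112002631 on the minus strand and shares 2985 bases with Krr1, which lies on the opposite strand. Whether counting used strand is not given in the sources used here, so reads of Glipr1 and Krr1 in those bases cannot be told apart. Cd44 has 8 annotated protein-coding transcripts, and counts from the 3′ ends of transcripts do not separate them, so the variant isoforms of Cd44 were not resolved. RefSeq promoter entries (GRCm38.p6) were found for Cd44, Aqp5 and Wfdc2. The 250 bases before the RefSeq start were 56.4% G or C for Cd44, 78.4% for Aqp5 and 64.8% for Wfdc2. The Cd44 and Wfdc2 stretches are shown because those genes had the most different orders over cell types. For Wfdc2 the stretch was limited to the 104 bases outside every annotated exon. It precedes the RefSeq start used but lies inside the GENCODE span of Wfdc2, downstream of the start annotated there. For Aqp5, 246 of the 250 bases lay inside an annotated exon and none are shown. They run 5′ to 3′ on the gene's strand, at chr2:102901666-102901915 (minus) and chr2:164562475-164562578 (plus), and motif letters would stand in capitals; neither printed stretch holds any.
Cd44: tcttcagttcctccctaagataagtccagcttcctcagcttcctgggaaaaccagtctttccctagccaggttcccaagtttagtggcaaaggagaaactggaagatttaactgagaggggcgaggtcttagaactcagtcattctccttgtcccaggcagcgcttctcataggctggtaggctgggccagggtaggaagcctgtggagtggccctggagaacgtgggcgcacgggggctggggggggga
Wfdc2: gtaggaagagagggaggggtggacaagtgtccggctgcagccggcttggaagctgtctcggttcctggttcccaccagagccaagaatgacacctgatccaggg
Both strands of the 250 bases were searched for 6 short motifs, each also counted over 32851 promoter windows of the same length. The GC box was sought as GGGCGG, which 32.7% of all windows held. Aqp5 held it 77 and 34 bases before its RefSeq start, and Wfdc2 held it once on the opposite strand, 53 bases before its RefSeq start. By the GENCODE spans these Aqp5 and Wfdc2 sites lie inside the genes. The other motifs had no match in the windows of Cd44, Aqp5 and Wfdc2, and Cd44 had no GC box either. They were the letters CCAAT, held by 33.8% of windows. For the core promoter element TATAAA the share of windows was 12.4%. The motif of AP-1 factors was written TGANTCA and found in 6.75% of windows. For SOX factors the letters ACAATG were used, with a share of 10.7%. For TEAD factors the letters GGAATG were used, with a share of 12.6%. None of these motifs overlapped another.

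The deposited labels gave a type to 13362 of 21140 cells, between 2814 and 3974 in each mouse. Every typed cell held a UMI of the EYFP reporter, whereas 7166 of the 21140 cells held none. The typed cells held between 60224505 and 90547790 UMIs per mouse. The types were Acinar (3698 cells), proliferating Acinar.Prolif (894), Acinar/MucinDuctal (1955), MucinDuctal (3983), Ductal-like (139), Tuft/EEC.Progenitor (205), Tuft (1280) and EEC, for enteroendocrine cells (1208). Summed acinar enzyme markers fell in the order the names imply, from 366462 CPM in Acinar to 162325 in the intermediate Acinar/MucinDuctal type and 11161 CPM in MucinDuctal cells, while summed mucin markers were 2629, 43512 and 87529 CPM. Of the mucin markers, the surface mucin gene Muc5ac was near 0 in MucinDuctal cells. The Acinar/MucinDuctal intermediates had a median of 3674 UMIs per cell, against 27362.5 in Acinar and 17998 in MucinDuctal cells, and in 2-week mouse 2 their median was 19556 against 2659 to 3555 in the other mice. Shares of positive cells are therefore given also after every cell was reduced to 1500 UMIs, which left out 277 intermediates. Counts covered 2 mice per duration, named mouse 1 and mouse 2 in accession order only, and p-values measure the spread between these mice.

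Cd44 was low in Acinar cells and high in MucinDuctal cells, with the intermediates between them. In Acinar cells it stood at 6.43 and 12.2 CPM in the 2-week mice and at 4.10 and 4.79 CPM in the 4-week mice. In Acinar/MucinDuctal cells it stood at 125, 123, 92.4 and 86.8 CPM in the same order of mice. In MucinDuctal cells it reached 280, 186, 165 and 176 CPM, so that the ranges of these 3 types did not overlap. The log2 ratio to Acinar cells of the same mouse, on log2(CPM + 1), was 3.86 ± 0.43 (SD, n = 4) for the intermediates and 4.75 ± 0.64 for MucinDuctal cells, and MucinDuctal exceeded the intermediates by 0.90 ± 0.24, in 4 of 4 mice. At 1500 UMIs, 1.31% of Acinar, 13.8% of intermediate and 23.7% of MucinDuctal cells had a Cd44 UMI. In CPM the Acinar level lay below that of every class gated by markers of other cells with enough cells in each mouse, the lowest of which was 29.1 CPM in cells with B cell markers. Counted per cell this order turned for 3 of the 5 classes: Acinar cells held 0.229 Cd44 UMIs, against 0.164, 0.172 and 0.206 in cells with B cell, endothelial and T cell markers, 0.229 in fibroblast and 0.650 in macrophage marker cells.

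Cd44 was the only one of the 5 genes whose CPM was above the Acinar level in both Tuft and EEC cells in 4 of 4 mice. Tuft cells held 76.7, 99.8, 73.4 and 54.8 CPM and EEC 63.9, 40.9, 54.7 and 60.8 CPM. Over all types the order of mean CPM was MucinDuctal 202, Ductal-like 129, Tuft/EEC.Progenitor 120, Acinar/MucinDuctal 107, Tuft 76.2, EEC 55.1, Acinar.Prolif 13.9 and Acinar 6.88, and only between EEC and Acinar.Prolif did neighbouring ranges over mice stay apart. Proliferating acinar cells exceeded the other acinar cells by 0.97 ± 0.33 in the log2 ratio, in 4 of 4 mice. Within the deposited enteroendocrine subtypes, Cd44 averaged 144 ± 46.4 CPM in ECL (Tac1+), 111 ± 31.7 in Ppy+ and 99.98 ± 15.4 in Delta (Sst+) cells, against 21.7 ± 5.22 in Epsilon (Ghrl+) and 14.5 ± 10.0 in EEC-Progenitor (Neurog3+) cells (SD, n = 4). The ranges of the 3 higher subtypes, from 70.1 CPM up, did not overlap those of the 2 lower ones, which ended at 28.9 CPM. Among tuft cells, Tuft-1 held 129 and 125 CPM in the 2 mice with at least 20 such cells, 1 of each duration, above every mouse of Tuft-2 (at most 84.6 CPM) and Tuft-3 (at most 88.6 CPM). Tuft-2 and Tuft-3 cells averaged 67.9 and 65.3 CPM and overlapped.

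**Figure D1:**
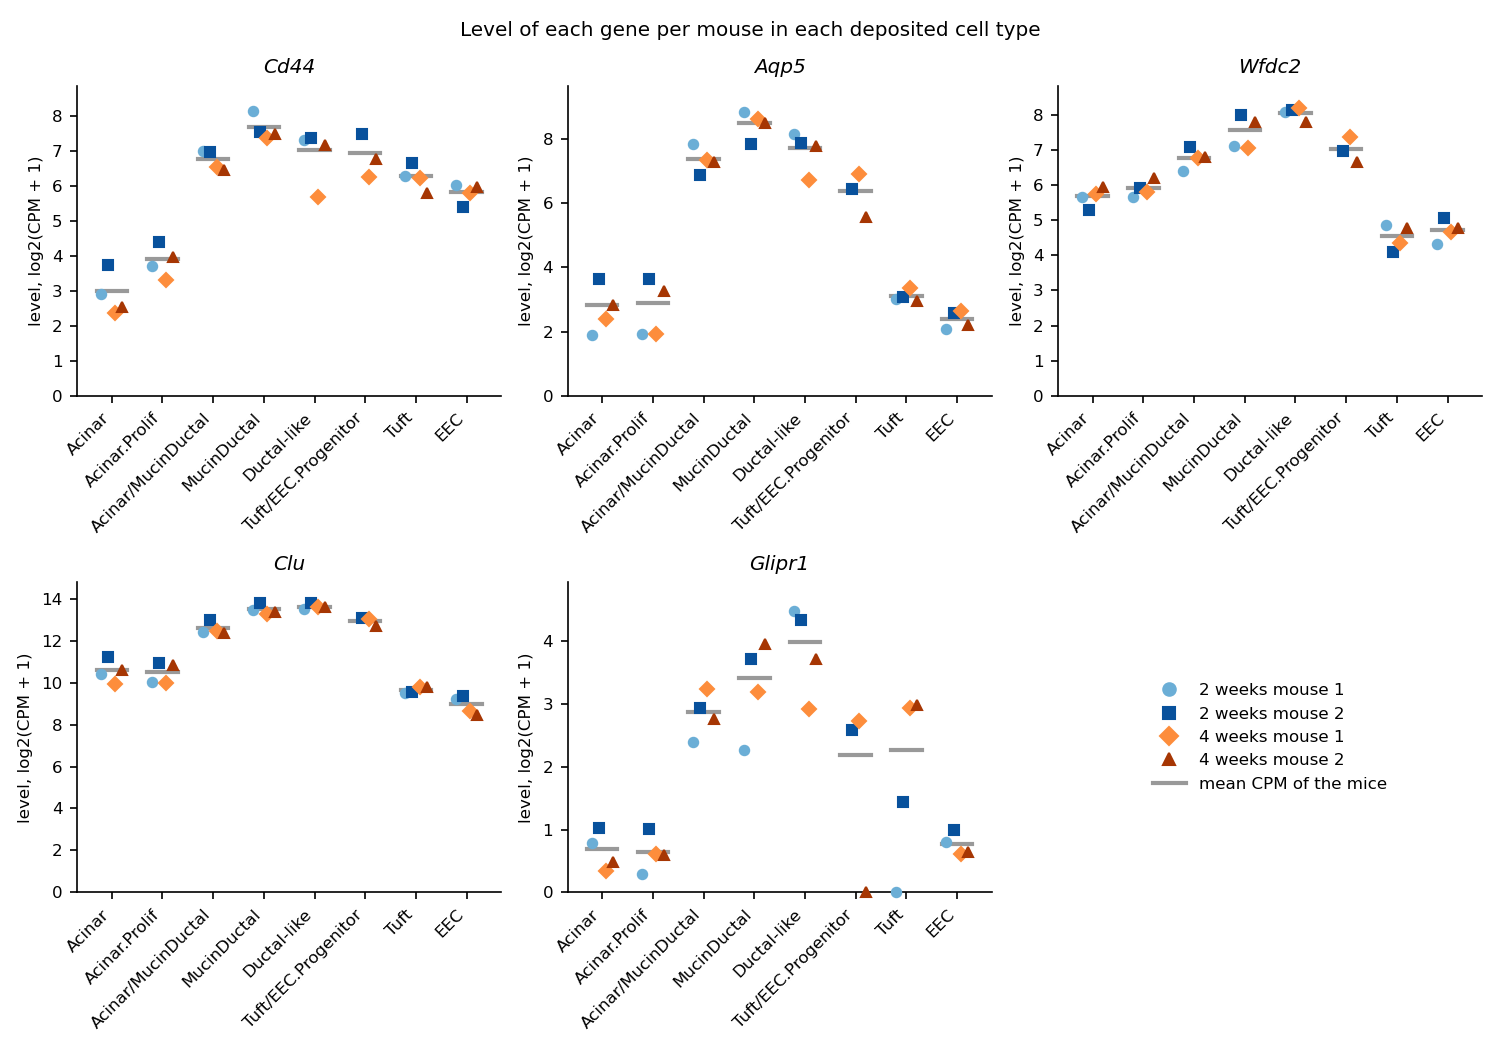
log2(CPM + 1) of each gene (5 panels, y axis) in the deposited cell types (x axis), with 1 point per mouse that had at least 20 cells of the type and a grey line at the mean. Cd44 stays high in Tuft and EEC cells, at means of 76.2 and 55.1 CPM, where Aqp5 averages 7.61 and 4.26 CPM.

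**Figure D2:**
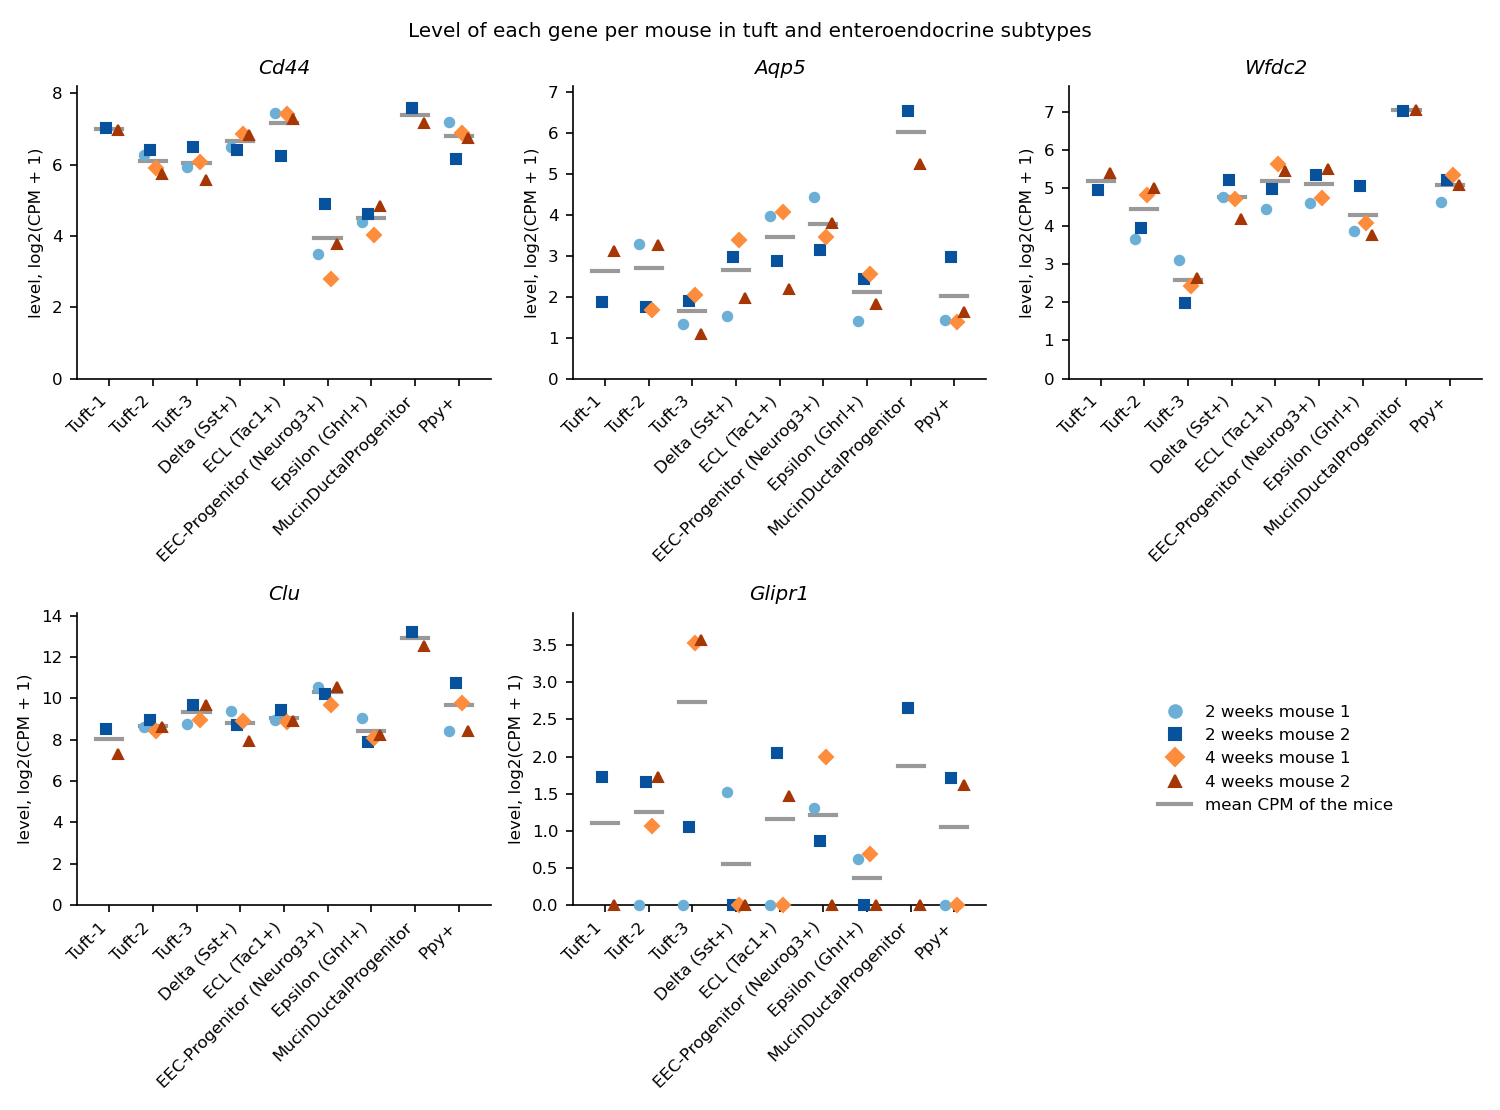
log2(CPM + 1) of each gene (5 panels, y axis) in the 9 deposited subtypes of tuft, enteroendocrine and progenitor cells (x axis), 1 point per mouse with at least 20 cells and a grey line at the mean. Cd44 averages 144 CPM in ECL and 14.5 CPM in EEC-Progenitor cells.

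Aqp5 separated the mucin-bearing cells from acinar, tuft and enteroendocrine cells by the widest log2 ratios of the 5 genes. Acinar cells held 2.67, 11.4, 4.25 and 6.08 CPM, intermediates 226, 116, 159 and 155 CPM and MucinDuctal cells 456, 225, 389 and 361 CPM in the 2-week and then the 4-week mice. The ratio to Acinar cells was 4.65 ± 1.12 (SD, n = 4) in intermediates and 5.76 ± 1.17 in MucinDuctal cells, and MucinDuctal exceeded intermediates by 1.11 ± 0.16, in 4 of 4 mice. 2-week mouse 2 had both the highest Acinar and the lowest MucinDuctal level, and the MucinDuctal and intermediate ranges met between 225 and 226 CPM. Ductal-like cells averaged 208 CPM and Tuft/EEC.Progenitor cells 82.8 CPM over 3 mice, and the latter did not overlap Tuft cells at 7.61 CPM.

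In Acinar, Tuft and EEC cells the mean CPM of Aqp5 was below that of all 5 classes of cells gated by markers of other cell types. Cells with B cell or T cell markers averaged 8.41 and 8.02 CPM and those with fibroblast, macrophage and endothelial markers 14.6, 22.6 and 27.8 CPM, against 6.09 CPM in Acinar, 7.61 in Tuft and 4.26 in EEC cells. Of all Acinar cells 12.3% ± 4.40 had an Aqp5 UMI, against 3.01% of B cell marker cells, but their median depth was 27362.5 against 3398 UMIs. Counted per cell, Acinar cells held 0.205 Aqp5 UMIs, Tuft cells 0.137 and EEC cells 0.0579, against 0.0490 and 0.0303 in cells with B cell and T cell markers and 0.106, 0.151 and 0.148 in those with fibroblast, macrophage and endothelial markers. The Acinar count per cell was thus above all 5 classes and the EEC count below 3 of them. Whether it is the cells' own RNA was not tested. At 1500 UMIs the Acinar share was 0.954%, against 1.26% to 2.08% in the 5 marker classes, and it was 18.5% in intermediates and 35.1% in MucinDuctal cells. The shares in intermediates and MucinDuctal cells were thus several times those of the marker classes.

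Clu was counted in nearly every cell of the acinar, mucin and ductal types, so it graded these cells by level and not by presence. It had a UMI in 99.0% ± 0.583 of Acinar, 98.1% ± 1.41 of intermediate and 99.95% ± 0.0539 of MucinDuctal cells. Its CPM was 1351, 2402, 986 and 1568 in Acinar cells, 5559, 8222, 5665 and 5289 in intermediates and 11510, 14394, 9800 and 10683 in MucinDuctal cells. These 3 ranges did not overlap. The log2 ratio to Acinar cells was 2.02 ± 0.36 in intermediates, 2.94 ± 0.33 in MucinDuctal and 3.09 in Ductal-like cells, where Clu averaged 12733 CPM. Tuft and EEC cells lay under Acinar cells in 4 of 4 mice, at log2 ratios of -0.88 ± 0.63 and -1.63 ± 0.45. Cells gated by markers of other cell types also held Clu, at 129 to 646 CPM with B cell, 159 to 390 with T cell, 287 to 749 with fibroblast, 598 to 1049 with macrophage and 341 to 2643 CPM with endothelial markers. EEC cells, at 502 ± 153 CPM (SD, n = 4), overlapped all 5 of these classes, Tuft cells, at 718 to 896 CPM, overlapped the last 3, and the Acinar range of 986 to 2402 CPM overlapped the last 2. Counted per cell, Acinar cells held 53.6, Tuft 14.6 and EEC 6.99 Clu UMIs, against 1.18 to 8.75 in the 5 classes. Intermediates held 34.3 to 245 Clu UMIs per cell over mice, which overlapped the Acinar range of 33.8 to 71.5.

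Wfdc2 was already present in Acinar cells and differed least between Acinar and MucinDuctal cells on this scale. Acinar cells held 49.7, 38.2, 52.7 and 60.3 CPM and 48.0% ± 2.95 of them had a UMI. Intermediates held 83.9, 134, 108 and 110 CPM and MucinDuctal cells 138, 256, 133 and 222 CPM. The intermediate and MucinDuctal ranges overlapped by the value of 2-week mouse 2 in the intermediates, although MucinDuctal was higher within each mouse, by 0.74 ± 0.32. Ductal-like cells were highest on average and overlapped MucinDuctal cells, at 270, 280, 292 and 220 CPM. The log2 ratios to Acinar cells were 1.10 ± 0.47 in intermediates, 1.84 ± 0.63 in MucinDuctal and 2.39 in Ductal-like cells. Tuft and EEC cells had less than Acinar cells in 4 of 4 mice, by log2 ratios of -1.13 ± 0.24 and -0.96 ± 0.49. Among tuft cells, Tuft-3 held 7.65, 2.95, 4.35 and 5.27 CPM, within the 0 to 15.6 CPM of B cell marker cells, and Tuft-2 held 11.6, 14.6, 27.2 and 30.9 CPM, with no overlap between the subtypes. Tuft-2 overlapped cells with macrophage markers, at 11.2 to 29.5 CPM, and the means of Tuft and EEC cells, 22.6 and 25.5 CPM, lay between those of the macrophage (19.9 CPM) and endothelial (27.7 CPM) marker cells.

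The acinar enzymes take up so large a share of acinar counts that they lower every other gene's CPM there. With 31 enzyme genes left out of the library size, the log2 ratio of intermediates to Acinar cells fell below the plain ratio for each of these genes, to 4.06 for Aqp5, 3.25 for Cd44, 1.30 for Clu and 0.39 ± 0.56 for Wfdc2. The Wfdc2 value was 1.23 in 2-week mouse 2 and 0.11, 0.16 and 0.08 in the other mice, so for Wfdc2 the higher level of the intermediates rested on 1 mouse. For MucinDuctal cells the ratios were 4.80 for Aqp5, 3.77 for Cd44, 1.84 for Clu and 0.75 ± 0.71 for Wfdc2. Wfdc2 then told Acinar cells from intermediates little in 3 of 4 mice, whereas Cd44 and Aqp5 in intermediates exceeded their Acinar level by at least 2.71 and 2.72 log2 units in every mouse.

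Glipr1 was counted in few cells, and it was highest in Ductal-like cells and in a part of the MucinDuctal cells. Ductal-like cells held 21.3, 19.2, 6.55 and 12.2 CPM, from only 3 and 6 UMIs in the 4-week mice. MucinDuctal cells held 3.82, 12.1, 8.19 and 14.5 CPM, intermediates 4.28, 6.65, 8.44 and 5.80 CPM, and Acinar cells between 0.268 and 1.04 CPM. The ratio to Acinar cells was 2.18 ± 0.55 in intermediates and 2.63 ± 0.83 in MucinDuctal cells, but MucinDuctal exceeded intermediates in only 2 of 4 mice. It had a UMI in 8.63% ± 4.17 of MucinDuctal and 1.02% ± 0.339 of Acinar cells. Glipr1 is also a gene of leukocytes, and cells with macrophage markers averaged 70.8 CPM, those with T cell markers 45.05 CPM. The 5 macrophage markers summed to 30.8, 33.3, 119 and 132 CPM in intermediates and to 83.6, 15.4, 17.5 and 116 CPM in Ductal-like cells, against 4.35 to 12.9 CPM in Acinar and 6.14 to 9.61 CPM in MucinDuctal cells. Their part in the Glipr1 levels was not tested. In Tuft/EEC.Progenitor cells it had no UMI in 4-week mouse 2, which at 3 UMIs allows up to 6.88 CPM.

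Cells labelled Acinar, intermediate or MucinDuctal were pooled within each mouse and ordered by the share of their counts taken by acinar enzymes. The values that follow are means over the 4 mice. As CPM of the counts outside the enzymes, Cd44 went from 8.18 CPM where enzymes took over 60% of counts to 37.3 CPM at 30 to 40%, 124 CPM at 10 to 20% and 211 CPM under 5%. Aqp5 went from 8.22 CPM over 64.5 and 262 to 358 CPM at the same steps and was highest, at 398 CPM, between 5 and 10%. Clu went from 2487 over 4961 to 10574 CPM at 10 to 20% and was 11511 CPM under 5%, so most of its span lay above 10% enzyme. Wfdc2 moved only from 99.3 to 140, 180 and 187 CPM, with ranges over mice that overlapped from end to end (54.2 to 143 CPM against 131 to 258 CPM). Within each mouse it was still higher under 5% than over 60%. It stood at 131, 258, 136 and 225 against 88.3, 54.2, 112 and 143 CPM in the 2-week and then the 4-week mice. On the mean over mice, cells in which enzymes took 10 to 20% were 69.9% intermediates, 18.3% Acinar and 11.8% MucinDuctal by label. The intermediate share ran from 57.3% in 2-week mouse 1 to 87.9% in 4-week mouse 2. Doublets were not called, and the part of cells with mixed counts in these values was not tested.

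**Figure D3:**
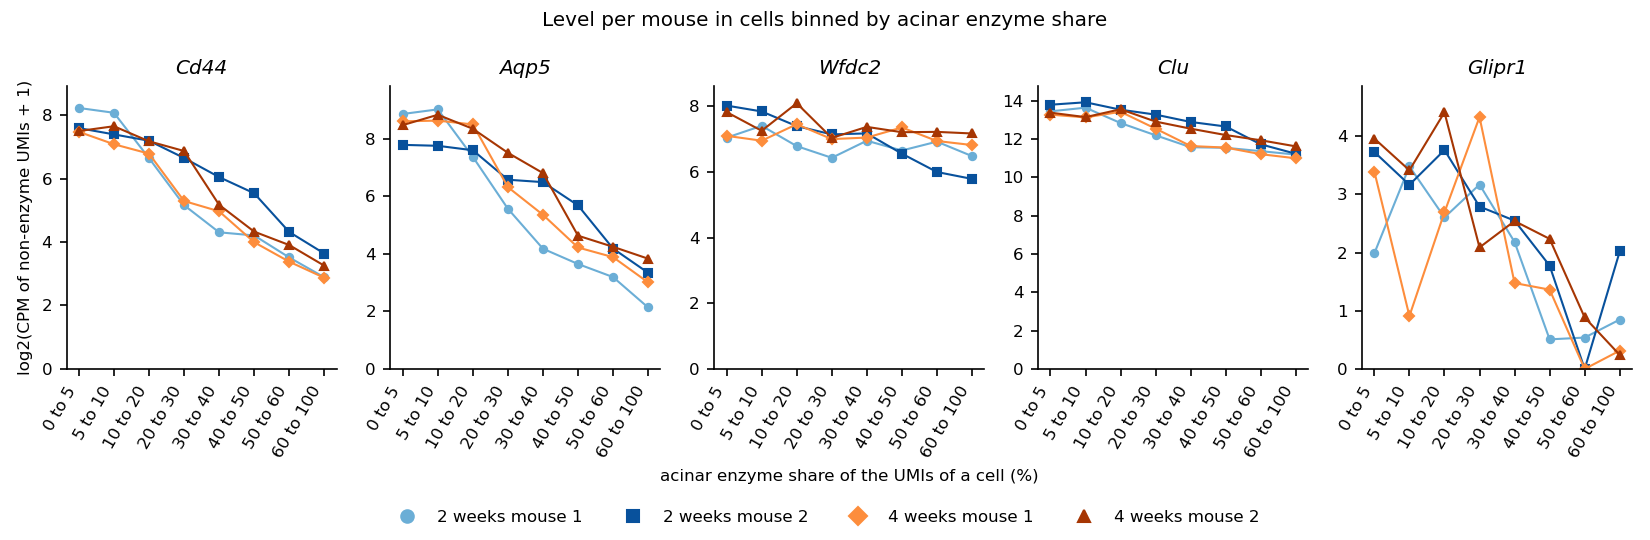
log2(CPM of counts outside the enzymes + 1) of each gene (y axis) against the share of a cell's UMIs in 31 acinar enzyme genes (x axis, in 8 bins), 1 line per mouse. Cd44 climbs from a mean of 8.18 to 211 CPM as the enzyme share falls, and Wfdc2 only from 99.3 to 187 CPM.

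The authors' clusters split the MucinDuctal cells into cluster 2, rich in gastric-type mucous products (Tff2 56817 and Gkn3 69524 CPM), and cluster 1, with 3796 and 17749 CPM of these. The clusters were drawn on the same counts, so the values that follow are descriptions with no test. Cd44 was lower in cluster 1 than in cluster 2 in 4 of 4 mice, at 189, 164, 105 and 116 against 312, 282, 178 and 220 CPM (log2 ratio -0.80 ± 0.09). Aqp5 was lower in cluster 1 by -0.85 ± 0.78, with 449, 167, 318 and 172 against 458, 476, 404 and 501 CPM, and in 2-week mouse 1 the clusters were nearly level. Wfdc2, Clu and Glipr1 ran the other way between these 2 clusters. Wfdc2 was 308, 278, 275 and 372 in cluster 1 against 78.0, 161, 103 and 112 CPM in cluster 2 (1.47 ± 0.51). Clu was higher in cluster 1 by 1.27 ± 0.43. Glipr1 averaged 24.4 CPM in cluster 1 and 1.41 CPM in cluster 2 (3.29 ± 0.54), with no overlap of the mice. Other markers moved with the clusters: the 4 mesothelial markers summed to 107, 179, 105 and 177 CPM in cluster 1 against 8.47, 22.2, 10.3 and 11.7 CPM in cluster 2, with at least 1 of the 4 at 0 in every cluster 1 sum. The 6 ductal markers summed to 10321 to 18597 CPM in cluster 1 and 5505 to 7604 CPM in cluster 2. Their part in the differences was not tested.

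Cluster 1 made up 30.5%, 82.0%, 23.7% and 43.6% of MucinDuctal cells, so that the sum over the whole type mixed the clusters in other proportions in each mouse. 2-week mouse 2, with the largest cluster 1 share, had the lowest Aqp5 and the highest Wfdc2 and Clu among MucinDuctal sums. Within the intermediates, cluster 4 exceeded cluster 3 in 4 of 4 mice for Cd44 (171 against 51.5 CPM, log2 ratio 1.76 ± 0.60), for Aqp5 (263 against 80.4 CPM, 1.61 ± 0.55), for Clu by 0.96 ± 0.31 and for Glipr1 by 0.66 ± 0.38. Wfdc2 differed by 0.27 ± 0.44 and in 3 of 4 mice. With the enzymes left out of the library size the direction turned for Wfdc2, at means of 140 CPM in cluster 4 and 154 CPM in cluster 3. On that scale the means in cluster 4 and cluster 3 were 195 and 81.3 CPM for Cd44, 299 and 127 CPM for Aqp5, 9398 and 6766 CPM for Clu and 8.86 and 6.95 CPM for Glipr1. Among Acinar cells, cluster 8 lay above cluster 0 in CPM for Aqp5 by 1.53, Cd44 by 1.24, Clu by 1.24 and Wfdc2 by 0.88, in 4 of 4 mice each. As CPM of the counts outside the enzymes the means were 22.6 against 9.73 for Aqp5, 18.1 against 11.0 for Cd44, 4004 against 2577 for Clu and 118 against 106 for Wfdc2, whose UMIs per cell were 1.48 and 1.45.

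**Figure D4:**
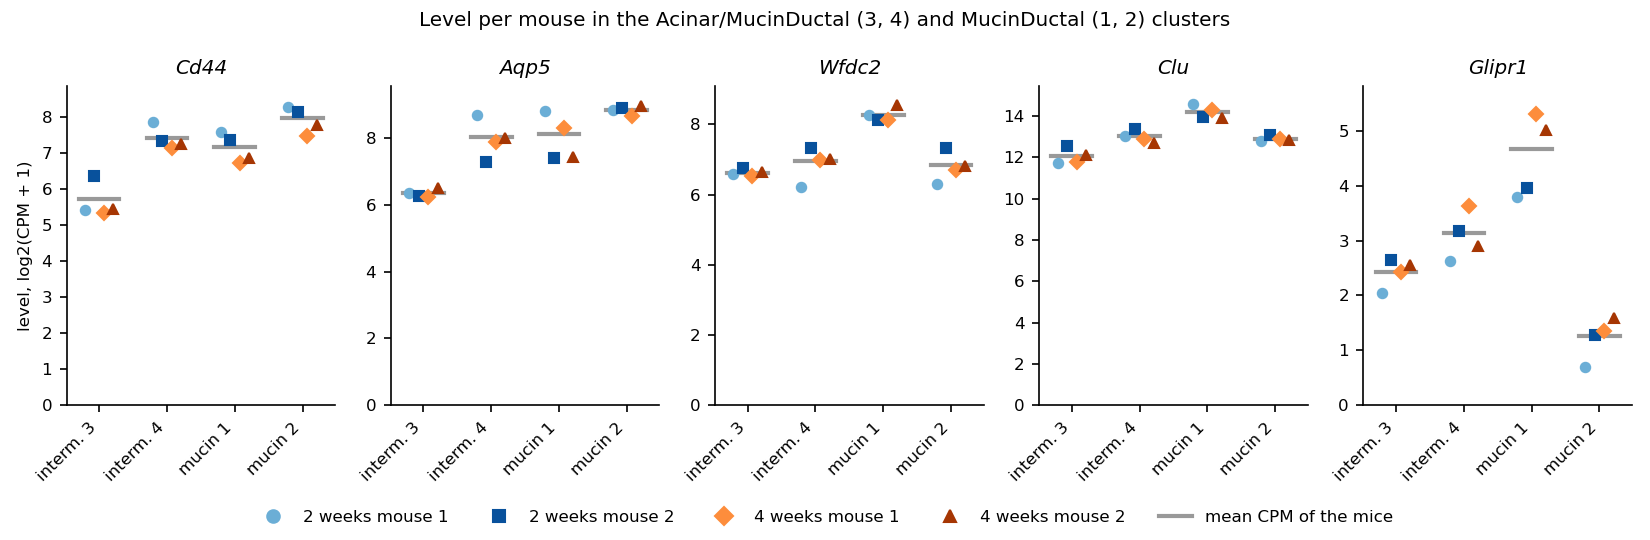
log2(CPM + 1) of each gene (5 panels, y axis) in the authors' clusters 3 and 4 of the intermediates and 1 and 2 of the MucinDuctal cells (x axis), 1 point per mouse and a grey line at the mean. Glipr1 averages 24.4 CPM in MucinDuctal cluster 1 and 1.41 CPM in cluster 2, while Cd44 is lower in cluster 1 in each mouse.

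Counting the genes in the same cells gave the ratio of the share of cells holding both genes to the share that independent counts would give at 1500 UMIs. In MucinDuctal cells this ratio was 0.53 ± 0.14 (SD, n = 4 mice) for Aqp5 with Glipr1 and 0.88 ± 0.03 for Cd44 with Wfdc2. It was 1.46 ± 0.32 for Wfdc2 with Glipr1 and 1.11 ± 0.08 for Cd44 with Aqp5. These ratios were not tested. For Aqp5 with Glipr1 the ratio was 0.59 ± 0.08 inside cluster 1. In cluster 2 it was 0.80 ± 0.24, ran from 0.57 to 1.14 over mice and rested on 0.0777% of cells holding both. For Cd44 with Wfdc2 the ratio was 0.98 ± 0.06 in cluster 1 and 0.93 ± 0.04 in cluster 2. For Cd44 with Aqp5 it was 1.03 ± 0.07 and 1.07 ± 0.03. The ratio for Wfdc2 with Glipr1 was 1.01 in cluster 1 and 1.39 ± 0.53 in cluster 2. At full depth all 5 genes were counted together in 1.89%, 6.41%, 2.60% and 2.77% of MucinDuctal cells and in 31.6%, 41.1%, 4.35% and 18.2% of Ductal-like cells. These shares depend on depth, with medians of 17998 UMIs in MucinDuctal and 28570 in Ductal-like cells. The 4-week mice had only 23 and 22 Ductal-like cells.

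Across 31 sums of mouse and cell type, the genes most like each of the 5 were ranked by Pearson's r of log2(CPM + 1) among 4538 genes, with the 5 themselves left out of the ranking. Sums of 1 mouse share a library. Cd44 was nearest to Fxyd3, a regulator of the sodium pump (r = 0.97), Adcy6 (0.97) and mt-Co3 (0.96). Aqp5 was nearest to Gkn3 (0.97), the tight junction gene Cldn2 (0.97) and the water channel Aqp1 (0.97). Clu was nearest to Hes1, a target of Notch signalling (0.97), Sh2d4a (0.97) and Ces2g (0.96). Wfdc2 was nearest to Cracr2b, Cpne8 and Hes1 (0.93 each), and Glipr1 to Lipt2 (0.86), Tgm2 (0.86) and Tmem45a (0.85). Among the 5 themselves r was 0.94 for Wfdc2 with Clu and 0.93 for Aqp5 with Clu, but 0.43 for Cd44 with Wfdc2.

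Related genes were read from named lists. Of 14 SPEM and neck-type partners, 11 reached 50 CPM in some type and 8 of those were highest in MucinDuctal cells, among them Tff2 (34953 CPM), Muc6 (4384), Gkn3 (48109), the pepsinogen gene Pgc (39122) and Cblif, for gastric intrinsic factor (2977). Of 13 Cd44 ligands and partners 7 reached 50 CPM, and the ligand Spp1, osteopontin, averaged 158 CPM in Acinar, 8073 in MucinDuctal and 18886 in Ductal-like cells. The matrix protease gene Mmp7 averaged 215 CPM in Tuft/EEC.Progenitor, 197 in Ductal-like and 86.1 in MucinDuctal cells, against 3.86 in Acinar cells. Of 10 other aquaporins 2 reached it: Aqp1 went the way of Aqp5, from 1.66 CPM in Acinar to 135 in MucinDuctal cells, and Aqp12, an acinar channel, ran opposite, from 256 in Acinar through 114 in intermediates to 3.23 CPM in MucinDuctal cells. Of 11 whey acidic protein domain genes 3 reached it, with Wfdc18 at 20.5 CPM in Acinar and 1760 in MucinDuctal cells, while Wfdc3 (71.3 CPM) and Wfdc15b (140 CPM) were highest in Ductal-like cells and averaged 1.13 and 10.7 CPM in MucinDuctal cells. Of 10 CAP superfamily genes none reached it.

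None of the 5 genes passed the test between 4 and 2 weeks of caerulein in any of the 7 types with enough mice, but with no gene filter Glipr1 in Tuft and Clu in EEC cells did, in fits that called 1.44% of 18458 and 0.387% of 19123 genes. By edgeR's quasi-likelihood test with Benjamini-Hochberg adjustment, 0 of 33 tests of these genes were called, 7 had an unadjusted p under 0.05, and DESeq2 called 0. In Acinar cells 0% of 12343 genes tested were called, in Acinar/MucinDuctal 0% of 11620, in MucinDuctal 0% of 13463, in Ductal-like 0% of 8748, in Tuft 0% of 10967, in EEC 0% of 11869 and in Acinar.Prolif 0.00995% of 10046. Of all genes tested, an unadjusted p under 0.05 was seen for 2.79% in Acinar, 2.45% in Acinar.Prolif, 3.42% in Acinar/MucinDuctal, 5.39% in MucinDuctal and 5.27% in Ductal-like cells, and for 6.74% among Tuft and 4.03% among EEC cells. Of the 5 genes it was seen for Wfdc2 in both acinar types, Cd44 in the intermediates, Glipr1 in Ductal-like, Cd44 and Glipr1 in Tuft and Clu in EEC cells. For the difference between the time effects of MucinDuctal and Acinar cells, 0 of 5 genes and 0% of 14098 were called, and 1 of the 5, Glipr1, had an unadjusted p under 0.05, as did 3.05% of all genes (log2 difference 1.74, edgeR adjusted p = 1). Without 2-week mouse 1 the fit of this difference called 3 of the 5 genes and 6.64% of all genes, and without 2-week mouse 2 it called 2 of the 5 and 0.641%. On simulated counts with 2 mice per duration, 171 of 200 genes with a 4-fold change were recovered in Acinar and 196 of 200 in MucinDuctal sums. False calls numbered 3 and 15. The changed genes were drawn from those with higher counts, and all genes were given a common spread. The recovery therefore does not cover genes with few counts or changes under 4-fold.

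For Cd44 the CPM of both 4-week mice lay under that of both 2-week mice in 5 of 7 types: Acinar, Acinar/MucinDuctal, MucinDuctal, Ductal-like and Tuft. Among all genes tested the same order of mice was seen for 61.8% in Acinar, 22.6% in Acinar/MucinDuctal, 30.2% in MucinDuctal, 18.7% in Ductal-like and 17.3% in Tuft cells, so in Acinar cells it was the order of most genes. In Acinar.Prolif and EEC cells, where Cd44 overlapped, 27.3% and 23.6% of genes had it. The edgeR log2 changes were -0.39 (SE 0.15, adjusted p = 0.999) in the intermediates, -0.34 (SE 0.25, adjusted p = 0.843) in MucinDuctal and -0.49 (SE 0.18, adjusted p = 0.649) in Tuft cells. Over all MucinDuctal cells the change was 0.032 without 2-week mouse 1. In 2-week mouse 2, 82.0% of these cells were of cluster 1, where Cd44 was lower. Within cluster 1 Cd44 was 189 and 164 CPM in the 2-week against 105 and 116 CPM in the 4-week mice. Within cluster 2 it was 312 and 282 against 178 and 220 CPM. The share of all genes with this order of mice was not counted within single clusters. The part of cluster make-up in the whole-type change was not tested. Fits of single clusters were added after the data were seen. There the Cd44 change was -0.63 (SE 0.16, edgeR adjusted p = 0.472) in cluster 1, where 0.0168% of 11931 genes were called. It was -0.49 (edgeR adjusted p = 0.811) in cluster 2. Among Tuft cells, cluster 7 averaged 86.8 CPM of Cd44 and cluster 10 63.4 CPM. Cluster 7 made up 51.8% and 71.9% of 2-week and 42.0% and 41.9% of 4-week Tuft cells. Macrophage markers there summed to 81.9 and 22.6 against 7.82 and 2.88 CPM. Within Tuft-2 and Tuft-3 cells the Cd44 changes were -0.56 and -0.50, neither called. The part of make-up and of other cells' RNA was not tested. The types share their mice, so their Cd44 changes are not separate observations. In Ductal-like cells the lowest Cd44 and Aqp5, 50.2 and 105 CPM, stood in 4-week mouse 1, whose 23 such cells also carried 72690 CPM of acinar markers against 14681 to 18260 in the other mice; the part of these markers in the low values was not tested.

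Glipr1 in Tuft cells had no UMI in 2-week mouse 1, which allows up to 1.76 CPM, and stood at 1.72 CPM in 2-week mouse 2 and at 6.62 and 6.90 CPM in the 4-week mice. The edgeR log2 change was 2.30 (SE 0.61, adjusted p = 0.410), and with no gene filter it was 2.31 and was called (edgeR adjusted p = 0.00468), as were 1.44% of all genes. The change was 1.97 without 2-week mouse 1. It was 7.54 without 2-week mouse 2, a fitted value against the 1 remaining 2-week mouse at 0 UMIs and so no measure of the fold. In Tuft-3 cells alone it was 0 and 4 UMIs in the 2-week mice against 17 and 29 UMIs in the 4-week mice, a change of 3.49 (SE 0.65, adjusted p = 0.0783, 0.114% of 9648 genes called). In Tuft-2 cells, where it was not tested, Glipr1 was 0 and 12 UMIs in the 2-week mice against 1 and 4 UMIs in the 4-week mice, or 0 and 2.16 against 1.09 and 2.29 CPM, so the durations overlapped there. Tuft-3 cells made up 42.2% and 27.2% of tuft cells in the 2-week and 53.3% and 51.6% in the 4-week mice. The 5 macrophage markers summed to 81.9 and 22.6 CPM in 2-week and 7.82 and 2.88 CPM in 4-week Tuft cells. The 4 B cell markers ran the other way, at 20.5 and 18.5 against 24.1 and 25.7 CPM. Of these 4, 3 had no UMI in 2-week mouse 1 and 2 had none in 4-week mouse 1. Cells with B cell markers averaged 30.7 CPM of Glipr1. Of 9 marker lists, 2 were higher and 1 was lower in both 4-week mice of Tuft cells, and 6 overlapped. Krr1, counted over its whole length, was 22.8, 22.8, 26.8 and 22.2 CPM, and reads in the bases it shares with Glipr1 were not separated. The part of other cells' RNA and of Krr1 reads in the Glipr1 difference was not tested. In MucinDuctal cluster 1 Glipr1 was likewise 12.9 and 14.6 against 38.7 and 31.4 CPM (1.35, SE 0.18, edgeR adjusted p = 0.183). The share of all genes with both 4-week mice above both 2-week mice was not counted in Tuft cells or in this cluster. Glipr1 ran the other way in Acinar and Ductal-like cells, with both 4-week mice under both 2-week mice. In EEC cells it was 0.740 and 0.987 against 0.526 and 0.560 CPM. Those values came from 0.00678 to 0.0139 UMIs per cell, too few to read a direction. Both 4-week mice lay under both 2-week mice for 61.8%, 18.7% and 23.6% of all genes tested in Acinar, Ductal-like and EEC cells. The edgeR log2 changes were -0.91 in Acinar and -1.07 in Ductal-like cells, neither called, and Glipr1 was not tested in EEC cells.

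Clu in EEC cells was 592 and 670 CPM in 2-week against 396 and 351 CPM in 4-week mice, with no overlap (edgeR log2 change -0.66, SE 0.15, adjusted p = 0.802); with no gene filter it was -0.67 and was called (edgeR adjusted p = 0.00637), as were 0.387% of all genes. Without 2-week mouse 1 it was called at -0.69 (edgeR adjusted p = 0.0101), beside Cd44 and 2.996% of all genes, and without 2-week mouse 2 at -0.63 (edgeR adjusted p = 0.0242), beside 1.70% of all genes. By subtype the change was -0.29 in Epsilon and -1.63 in EEC-Progenitor cells. The same order of mice was that of the 23.6% of EEC genes given above. Of 9 marker lists of other cells, 4 were likewise lower in both 4-week mice of EEC cells and 1 was higher. The 10 acinar markers, 1 of them at 0 in each mouse, summed to 16183 and 13418 against 9990 and 11299 CPM, and the 5 fibroblast markers to 32.8 and 14.2 against 6.31 and 6.72 CPM. The 7 mucin markers summed to 958 and 1243 against 1822 and 2059 CPM. The part of these cells' RNA in the Clu difference was not tested. Wfdc2 in Acinar cells was 49.7 and 38.2 against 52.7 and 60.3 CPM, an edgeR log2 change of 0.78 (SE 0.27, adjusted p = 0.998). In that type TMM normalisation set the 4-week mice 0.46 log2 units higher against plain CPM; the shift was 0.20 in Acinar.Prolif and 0.12 in MucinDuctal cells and under 0.1 in the other types. Fits within the remaining clusters and subtypes called none of the 5 genes either, at 0.00978% of genes called in cluster 3 of the intermediates, 0% in cluster 4, MucinDuctal cluster 2, Tuft-2 and Epsilon cells, 0.072% in EEC-Progenitor, 0.0152% in Delta and 0.0816% in ECL cells. No gene of the 6 related lists was called over time in any of the 7 types.

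**Figure D5:**
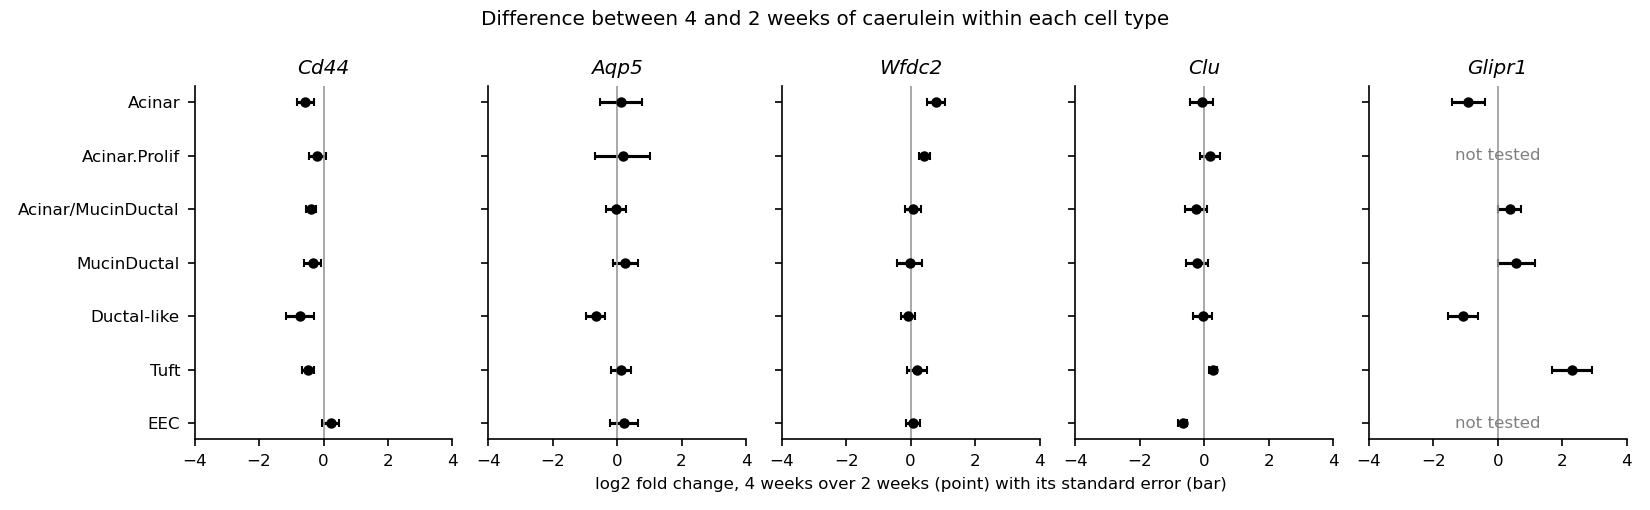
edgeR log2 fold change at 4 over 2 weeks (horizontal axis) with its standard error as a bar, for each gene in each cell type, 2 mice per duration. Cd44 lies under 0 in 6 of 7 types, none past adjusted p = 0.05, and Glipr1 in Tuft cells lies farthest out, at 2.30 ± 0.61 (SE).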

How the data were processed

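Whole-number UMI counts per gene and cell were deposited by the authors, with tables giving cell types, subtypes and clusters. Per the submitters' processing notes, Cell Ranger 4.0.0 and Seurat 3.2.3 were used on mm10; how cells were filtered and typed, and whether counting used strand, is not given in the sources used here. The deposited labels were used as given, no cells were removed here and no doublet caller was run; 67 of 21068 barcodes occurred in more than 1 library. Counts were summed per mouse and type, groups under 20 cells in a mouse were left out, and log2 ratios used a pseudocount of 1 CPM. Shares at 1500 UMIs are hypergeometric expectations. A count of 0 allows up to 3 UMIs, and intervals in the tables are exact Clopper-Pearson at 95%; both cover counting error only. Background cells were 3912 untyped cells gated by markers of B cells, T cells, macrophages, fibroblasts, endothelium or mesothelium.

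Time effects were tested on sums with edgeR 4.0.16 (TMM, quasi-likelihood, R 4.3.3), with p-values adjusted over all genes tested, and with DESeq2 1.42.0 as an alternative. On simulated counts with a 4-fold change, 171 of 200 genes were recovered in Acinar, 196 in MucinDuctal sums and 186 for the difference between them. The changed genes were drawn from those with higher counts and all genes had a common spread, so genes with few counts are not covered. Other alternatives were no gene filter, other scaling, other pseudocounts and leaving out each mouse. All 5 genes are named; the others are the 3 most alike per gene and list members reaching 50 CPM. The genes, lists and tests were chosen with earlier results of these data known.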

Additional observations from a re-analysis of the deposited data

Results flagged for a closer look

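In 70 groups of 4 mice, the highest or lowest value was set against the range of the group, and 4 stood apart; chance alone marks about 1 in 20 groups. Clu in Acinar/MucinDuctal cells of 2-week mouse 2 was 8222 CPM against 5289 to 5665 CPM in the others; these were also the deepest intermediates. Clu in ECL (Tac1+) cells of the same mouse was 706 CPM against 471 to 492 CPM. Aqp5 in Ppy+ cells of the same mouse was 6.79 CPM, from 3 UMIs, against 1.60 to 2.06 CPM. Glipr1 in Delta (Sst+) cells of 2-week mouse 1 was 1.86 CPM, from 1 UMI, with none in the other mice.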

How the results depend on the processing

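The durations were compared without pairing: the 4 mice were separate animals, and the labels give nothing that links 2-week to 4-week mice. Cell types were compared within each mouse, with the mouse as a block in the test of the difference of time effects. Of 240 levels under alternatives 23 moved and 7 reversed, of 82 counts of called genes 6 moved, and of 90 shares 27 moved. Of 380 time effects 40 reversed, and 9 kept their direction and became significant. An effect that reversed and was also called is counted only among the 40. Without enzymes in the library size, the log2 ratio to Acinar was 3.25, 0.39 and 1.30 for Cd44, Wfdc2 and Clu in Acinar/MucinDuctal and 3.77, 0.75 and 1.84 in MucinDuctal cells; it turned for Wfdc2 in Acinar.Prolif (-0.10), Aqp5 in Tuft (-0.56) and Glipr1 in EEC cells (-0.38, and -0.014 thinned). With a pseudocount of 0.1 CPM Glipr1 was 3.28 and 3.77 in the 2 mucin-bearing types. For Cd44, Aqp5, Wfdc2, Clu and Glipr1 the Acinar shares were 1.31%, 0.954%, 6.93%, 74.8% and 0.0930% at 1500 UMIs and 3.43%, 2.92%, 29.8%, 98.1% and 0.301% at 2 or more UMIs. In intermediates they were 13.8%, 18.5%, 12.6% and 96.0% thinned for the first 4, and 26.4%, 22.7%, 95.5% and 1.09% at 2 or more UMIs for Aqp5, Wfdc2, Clu and Glipr1. In MucinDuctal cells they were 23.7%, 35.1%, 21.5%, 98.8% and 1.28% thinned, and 64.1%, 71.3%, 52.7% and 2.95% for Cd44, Aqp5, Wfdc2 and Glipr1 at 2 or more UMIs. With no gene filter edgeR called 1 gene of the 5 in Tuft cells (Glipr1, 2.31, adjusted p = 0.00468, among 266 calls, 1.44% of genes) and 1 in EEC cells (Clu, -0.67, adjusted p = 0.00637, among 74, 0.387%); over all alternatives the adjusted p ran from 0.00468 to 0.937 and from 0.00637 to 1.00. Leaving out 1 mouse gave 0 to 2 calls in EEC cells (Clu and Cd44 without 2-week mouse 1, where 2.996% of all genes were called, Clu without 2-week mouse 2, 1.70%) and 0 to 3 for the difference of time effects (Aqp5, Cd44 and Wfdc2 without 2-week mouse 1, 6.64% of all genes, Aqp5 and Glipr1 without 2-week mouse 2, 0.641%), and 0 in the other types; the lone mouse left is assumed to vary like the others. That difference ran from -1.41 to 1.38 for Aqp5, -0.37 to 0.84 for Cd44 and -0.40 to 0.081 for Clu, and was 0.011 for Aqp5 with no filter. Leaving out 1 mouse, time effects of Aqp5 ran from -0.47 to 1.26 in Acinar, -0.84 to 1.04 in Acinar.Prolif, -0.42 to 0.49 in intermediates, -0.19 to 0.90 in MucinDuctal, -0.10 to 0.34 in Tuft and -0.13 to 0.51 in EEC cells. Those of Clu ran from -0.37 to 0.22 in Acinar, -0.26 to 0.51 in Acinar.Prolif, -0.53 to 0.081 in intermediates and -0.20 to 0.11 in Ductal-like cells. Those of Wfdc2 ran from -0.24 to 0.49 in intermediates, -0.42 to 0.45 in MucinDuctal, -0.35 to 0.14 in Ductal-like, -0.27 to 0.54 in Tuft and -0.19 to 0.44 in EEC cells, and those of Cd44 from -0.55 to 0.083 in Acinar.Prolif, -0.63 to 0.032 in MucinDuctal and -0.12 to 0.65 in EEC cells. The Acinar.Prolif ratio to Acinar ran from -0.14 to 0.15 for Aqp5, -0.20 to 0.0097 for Clu and -0.13 to 0.12 for Glipr1. In fits of single clusters or subtypes, chosen after seeing the data, time effects turned for Aqp5 (0.062) and Wfdc2 (-0.11) in cluster 3, Aqp5 (-0.30) and Wfdc2 (0.19) in cluster 1, Clu in cluster 2 (0.031) and Tuft-2 (-0.29), and Wfdc2 in EEC-Progenitor (-0.24), Epsilon (-0.36) and Delta cells (-0.48). The cause of these changes was not tested, and the subtype fits used only cells typed Tuft or EEC. Depth limits Glipr1 most, with 118 to 621 UMIs per mouse.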
